A study of Mus musculus with 14 samples.

Results

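Keratins are the intermediate filament proteins of epithelial cells, and 9 keratin genes were followed through RNA sequencing of fibroblast cultures from mouse lung and dorsal skin. The genes were Krt5, Krt14, Krt15, Krt17, Krt6a, Krt7, Krt8, Krt18 and Krt19, chosen by name as keratins of basal, stressed and simple epithelium. They are 9 of the 53 protein-coding keratin genes and of the 48795 genes in the count table. All 9 passed the filter on low counts that left 16408 genes for testing. The mice were C57BL/6J males aged 8 to 10 weeks, either Rel -/-, with both alleles of Rel, the gene of the NF-kappaB transcription factor c-Rel, mutated, or wild type. Cells that grew out of tissue pieces were harvested after 14 days without stimulation. The groups were skin cultures labelled Rel-null (libraries 18, 19 and 20), wild-type skin cultures (11 and 22), lung cultures labelled Rel-null (7, 8, 9 and 10) and wild-type lung cultures (1, 23, 3, 4 and 5). Library 10 carries a treatment label that says skin, while its title and source say lung, and it was kept with lung.

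Keratins come in an acidic type I and a basic type II, and filaments form only from pairs of the types. Krt5 and Krt14 are the pair of basal keratinocytes, Krt6a and Krt17 mark wounded or stressed epidermis and parts of the hair follicle, and Krt15 marks basal cells and the follicle bulge. Krt8 and Krt18 are the pair of simple epithelia, Krt7 and Krt19 belong to simple and ductal epithelia and to mesothelium, and fibroblasts are known for vimentin filaments in place of keratins. In the mouse genome (GRCm38) the type I genes Krt14, Krt15, Krt17 and Krt19 lie together on chromosome 11. The type II genes Krt5, Krt6a, Krt7 and Krt8 lie on chromosome 15, together with the type I gene Krt18.

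The labels did not match Rel itself in every library, and several libraries stood apart. Rel read 0.0349 CPM (read counts scaled to the library total) in library 18, but 9.42 and 9.47 CPM in libraries 19 and 20, all labelled Rel-null skin, against 11.5 and 10.9 CPM in wild-type skin 11 and 22. Lung libraries labelled Rel-null read 0.0651 to 4.06 CPM of Rel, and wild-type lung 1.10 to 17.3 CPM, the lowest in library 4. Rel-null therefore means labelled Rel-null throughout, and every direction follows the labels. Totals were 12780350 to 30987933 counts, except 2663437 in wild-type skin 22, where 3 counts, the smallest number treated as a level, equal 1.13 CPM. Expressed genes at 0 counts made up 3.37% to 11.5% in Rel-null lung 7, wild-type skin 11, wild-type lung 4 and Rel-null skin 18, and at most 0.728% elsewhere. Xist, the RNA of the inactive X, read 732 CPM in wild-type skin 22 and 64.5 CPM in wild-type lung 1 although the mice are described as male. All 8 fibroblast markers were present in each group, and 8 leukocyte markers summed to 4506 to 23730 CPM in lung libraries but at most 134 CPM in skin.

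Promoter sequences are shown for Krt5, whose difference had the smallest p among the keratins in skin, and for the partners Krt8 and Krt18, which lie next to each other in opposite directions and stood high together. RefSeq promoter windows on GRCm38.p6 were found for 5 of the 9 genes, and printed where the RefSeq start lay close to the GENCODE start. Each runs from 250 bases before the RefSeq start to 5 bases into the transcript, 5′ to 3′ on the gene's own strand, and capitals mark the TATA-like letters TATAA or ATAAA.
Krt5: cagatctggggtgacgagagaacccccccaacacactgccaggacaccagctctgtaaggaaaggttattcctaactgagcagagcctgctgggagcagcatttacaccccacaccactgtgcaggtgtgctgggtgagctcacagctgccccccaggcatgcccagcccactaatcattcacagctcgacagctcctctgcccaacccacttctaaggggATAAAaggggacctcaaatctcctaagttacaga
Krt8: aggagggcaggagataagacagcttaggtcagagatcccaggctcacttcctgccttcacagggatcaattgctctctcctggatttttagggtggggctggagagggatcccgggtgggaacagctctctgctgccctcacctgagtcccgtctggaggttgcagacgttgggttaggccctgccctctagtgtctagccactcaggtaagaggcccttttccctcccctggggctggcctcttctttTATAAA
Krt18: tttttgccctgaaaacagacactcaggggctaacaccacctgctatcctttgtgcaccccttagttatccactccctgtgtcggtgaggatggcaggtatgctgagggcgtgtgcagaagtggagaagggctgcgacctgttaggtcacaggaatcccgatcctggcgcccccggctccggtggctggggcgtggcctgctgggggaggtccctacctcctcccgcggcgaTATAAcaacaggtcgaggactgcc
The Krt5 window is chr15:101712901-101713155 on the minus strand, with ATAAA beginning at -29 from the start. The Krt8 window is chr15:102004338-102004592 on the minus strand, with TATAA at -1 and ATAAA overlapping it from position 1, the first base of the transcript. The RefSeq start of Krt8 lay 140 bases inside the GENCODE gene. The Krt18 window is chr15:102027966-102028220 on the plus strand, with TATAA at -19. Of 32851 mouse promoter windows of the same kind, with 50 bases of transcript, 17.5% hold TATAA and 26.0% hold ATAAA on the sense strand. The kappaB consensus, searched on both strands and found in 4.51% of all windows, and the AP-1 letters TGANTCA, found in 7.81%, were in none of these 3 windows. Of the other 2 windows found, that of Krt14 held the kappaB consensus, but it starts 1518 bases inside the GENCODE gene and is not shown. A match is a description of letters and not of binding.

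Skin cultures labelled Rel-null carried far more keratin RNA than wild-type skin cultures. The 9 genes together took 0.294%, 0.123% and 0.198% of all counts in Rel-null skin 18, 19 and 20, against 0.00915% and 0.00128% in wild-type skin 11 and 22. Basal, stress and simple-epithelium keratins were all among the higher genes, and Krt19 was the exception. In 8 of the 9 genes every Rel-null skin library lay above both wild-type skin libraries, where 13.7% of all tested genes did so. For Krt15, 1 of the 8, this rests on 12 counts and 1 count in libraries 19 and 20 against 0 in wild-type skin 22, where fewer than 3 counts would not be treated as a level, so that those libraries are not shown to be higher. Krt5 and Krt15 passed the low-count filter only through Rel-null skin, so their direction was set by that filter. In edgeR's quasi-likelihood test 7 of 9 were higher at an unadjusted p under 0.05, against 3.65% of all genes. None passed the adjusted threshold of 0.05 (0 of 9, and 0.00% of all genes), the smallest adjusted p being 0.0513 for Krt5, while DESeq2 called 4 of 9 and 0.884% of all genes, and limma-voom 0 of 9 and 1.83% of all genes. The median log2 fold change was 5.46 over the 9 keratins, also with Krt15 at its bound, and 0.01 over all genes. Nothing in the labels ties each library to an animal of its own, and the p-values reflect library-to-library spread, which may be technical. In bulk RNA, fewer cells of a type and less RNA per cell cannot be told apart.

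**Figure D1:**
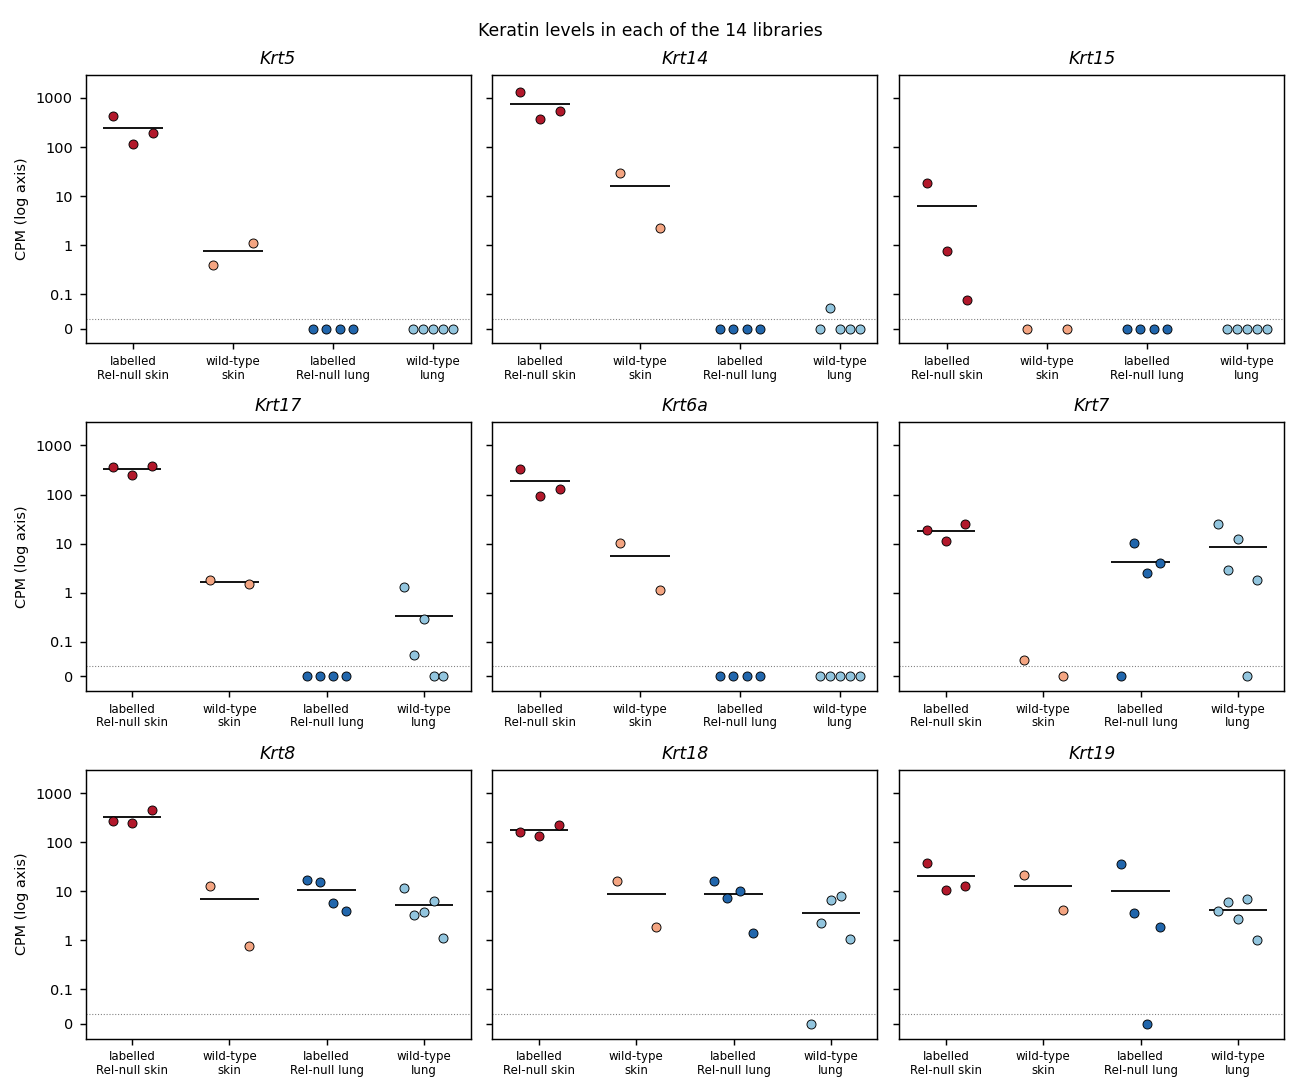
CPM of each keratin in each of the 14 libraries, on a log axis with 0 drawn below the dotted line; points are libraries in the order named in the text and horizontal lines are group means above 0.04 CPM. Rel-null skin stood above wild-type skin in every gene except Krt19, and the lung libraries held Krt7, Krt8, Krt18 and Krt19 but almost none of the other 5.

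Of the basal pair, Krt14 had the highest mean of the 9 keratins in Rel-null skin, and Krt5 stood below Krt17 and Krt8. Krt5 (ENSMUSG00000061527, chromosome 15, 101707070-101712898) read 431, 117 and 191 CPM in Rel-null skin 18, 19 and 20, against 0.387 and 1.13 CPM in wild-type skin 11 and 22. The groups lay far apart, but the wild-type values rest on 9 and 3 counts (95% Poisson intervals 0.177 to 0.735 and 0.232 to 3.29 CPM). The means differed 325-fold (log2 fold change 8.75 ± 0.96 SE, edgeR adjusted p = 0.0513). Krt14 (ENSMUSG00000045545, chromosome 11, 100203162-100207548) read 1318, 365 and 553 CPM in Rel-null skin, against 29.2 and 2.25 CPM in wild-type skin. Library 18 was highest and 19 lowest of the 3 in both partners, and the 2 wild-type libraries stood in opposite order, 11 above 22 for Krt14 and below it for Krt5. The means of Krt14 differed 47.4-fold (5.46 ± 0.99 SE, edgeR adjusted p = 0.140). Krt15 (ENSMUSG00000054146, chromosome 11, 100131758-100135928) was uneven within the group, at 520, 12 and 1 counts (18.1, 0.764 and 0.0783 CPM) in Rel-null skin 18, 19 and 20, against 0 counts in both wild-type skin libraries. Its mean was at least 54.6-fold higher when wild-type skin is set to 3 counts over the group (edgeR adjusted p = 0.784), and nearly all of it came from library 18.

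The stress keratins also stood apart between the genotypes, without overlap. Krt17 (ENSMUSG00000035557, chromosome 11, 100256217-100261029) read 360, 253 and 390 CPM in Rel-null skin, against 1.85 and 1.50 CPM in wild-type skin. It was the most even keratin within both groups, and the means differed 199-fold (7.59 ± 1.52 SE, edgeR adjusted p = 0.216). Krt6a (ENSMUSG00000058354, chromosome 15, 101689910-101694307) read 335, 91.7 and 129 CPM in Rel-null skin, against 10.1 and 1.13 CPM in wild-type skin. As with the basal pair, library 18 was highest, and the means differed 33.0-fold (4.92 ± 1.07 SE, edgeR adjusted p = 0.399). Of the 50-base stretches of Krt6a transcripts, 45.7% also occur in another gene, mostly its near copy Krt6b, so how its reads were shared out is uncertain. The same share was 13.9% for Krt14, mostly with Krt16, 8.52% for Krt5 and 3.99% for Krt17. Small annotated genes overlap exons of Krt5, Krt6a, Krt7 and Krt8 on the opposite strand, and the strand setting of the counting is not given in the sources used here.

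The simple-epithelium pair was also higher in Rel-null skin. Krt8 (ENSMUSG00000049382, chromosome 15, 101996698-102004482) read 264, 249 and 457 CPM in Rel-null skin, against 12.9 and 0.751 CPM in wild-type skin. Library 20 was highest here, not 18, and wild-type skin 22 had only 2 counts. The means differed 47.3-fold (5.39 ± 1.14 SE, edgeR adjusted p = 0.216). A processed pseudogene, Krt8-ps, shares 26.9% of the 50-base stretches of Krt8 but had only 19, 7 and 9 counts in Rel-null skin. Krt18 (ENSMUSG00000023043, chromosome 15, 102028180-102032027) followed its partner with 159, 136 and 227 CPM in Rel-null skin, against 15.9 and 1.88 CPM in wild-type skin. Its means differed 19.6-fold (4.18 ± 1.48 SE, edgeR adjusted p = 0.676).

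The remaining simple keratins differed from each other. Krt7 (ENSMUSG00000023039, chromosome 15, 101411043-101430313) read 19.3, 11.4 and 24.7 CPM in Rel-null skin, against 1 count and 0 counts in wild-type skin 11 and 22. The groups did not overlap, and the pooled ratio was 475 with a counting interval of 85.0 to 18770, since it rests on that 1 count (edgeR adjusted p = 0.676). Krt19 (ENSMUSG00000020911, chromosome 11, 100140810-100148665) read 37.6, 10.5 and 12.5 CPM in Rel-null skin, against 21.04 and 4.13 CPM in wild-type skin. These values overlap, and the log2 fold change was 0.65 ± 1.66 SE (edgeR adjusted p = 1.00). Without library 18 it was -0.12, and without wild-type skin 22 it was -0.11.

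**Figure D2:**
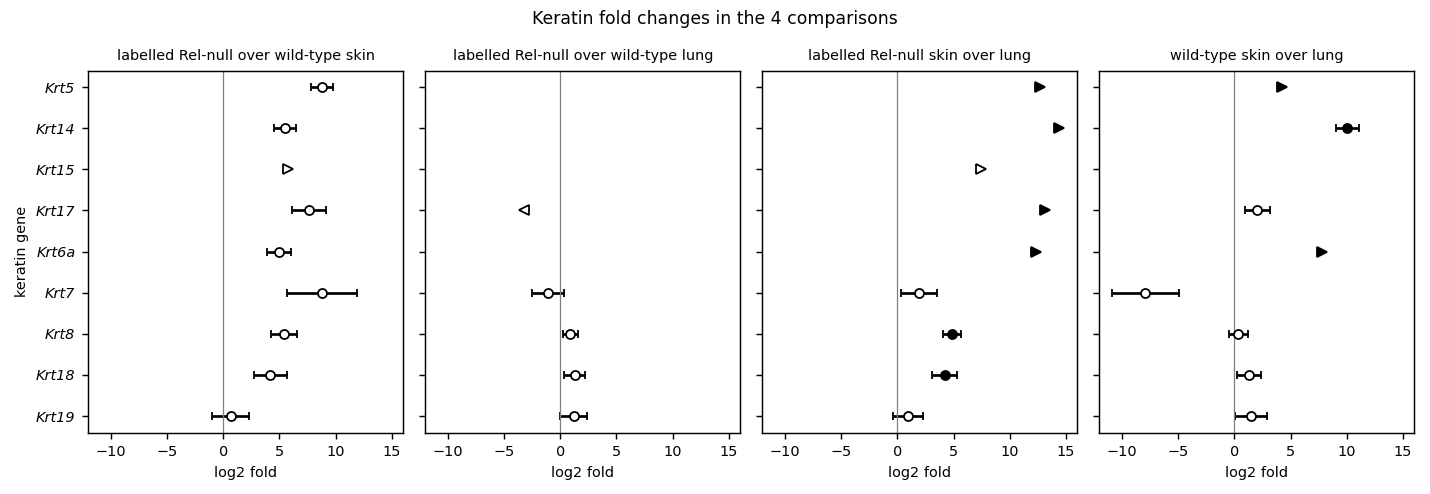
Log2 fold of each keratin in the 4 comparisons, the group named first over the second; circles with bars are the edgeR estimate ± SE, triangles are bounds where 1 group had 0 counts, and filled symbols have an adjusted p under 0.05. In skin all 9 symbols lie right of 0 and none is filled, while 6 are filled for Rel-null skin over Rel-null lung and 3 for wild-type skin over wild-type lung; genes with at most 3 counts in all in both groups have no symbol.

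Single libraries decided whether keratins passed the test in skin. Without wild-type skin 22, the shallow Xist-positive library, Krt5 and Krt14 passed, among 2.36% of all genes in either direction. Without both Xist-positive libraries 4 of 9 did (Krt5, Krt14, Krt17 and Krt8), among 2.50% of all genes. Without wild-type lung 1 the calls were Krt5 and Krt17 (0.0369% of all genes), without Rel-null lung 7 Krt5 (0.109%), and without wild-type skin 11 Krt14 (0.0280%). Without libraries 19 and 20, whose Rel level was near that of wild type, Krt5 and Krt14 passed, among 0.314% of all genes. Without the 4 libraries with the most genes at 0, Krt5, Krt14 and Krt6a passed, among 0.498% of all genes. In these fits a skin group can be a single library, which is then assumed to vary like the other groups. The number of keratins lying wholly above wild-type skin was 8 or 9 whichever skin library was left out, and 9 with library 18 as the only Rel-null skin library.

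Basal and stress keratins made up 83.7%, 67.0% and 63.7% of the 9-keratin counts in Rel-null skin 18, 19 and 20, against 45.4% and 47.1% in wild-type skin 11 and 22. Library 18 exceeded the mean of 19 and 20 by 2.80-fold for Krt5, 2.87-fold for Krt14, 3.04-fold for Krt6a and 43.0-fold for Krt15. For Krt19, a simple-epithelium keratin, it was 3.26-fold. For Krt17, Krt7, Krt8 and Krt18 the same ratio was 1.12, 1.07, 0.749 and 0.874. The library with almost no Rel counts thus stood above the other 2 in Krt5, Krt14, Krt15, Krt6a and Krt19, and near their mean in the remaining 4, which follows neither keratin class.

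Levels between genes were compared as CPM per kb of exon. In Rel-null skin the order by mean was Krt14 at 424 ± 287, Krt17 at 216 ± 46.3, Krt8 at 165 ± 59.3, Krt18 at 121 ± 32.8, Krt5 at 112 ± 74.7 and Krt6a at 76.7 ± 54.3 CPM per kb (SD, n = 3). Krt19 followed at 10.9 ± 8.13, Krt15 at 3.58 ± 5.79 and Krt7 at 2.62 ± 0.946 CPM per kb. Neighbours in this order differed by less than the larger of their SDs, except that Krt6a stood clear of Krt19. With the longest transcript as the length Krt7 came to 4.51 CPM per kb and passed Krt15. In wild-type skin (n = 2) Krt14 had the highest mean, at 8.95 ± 10.8 CPM per kb, through library 11, since in library 22 it stood at 1.28 CPM per kb, below Krt19 at 2.23 and Krt18 at 1.31. By the mean, Krt19 came next at 6.79 ± 6.45, and Krt5 stood seventh at 0.344 ± 0.238.

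**Figure D3:**
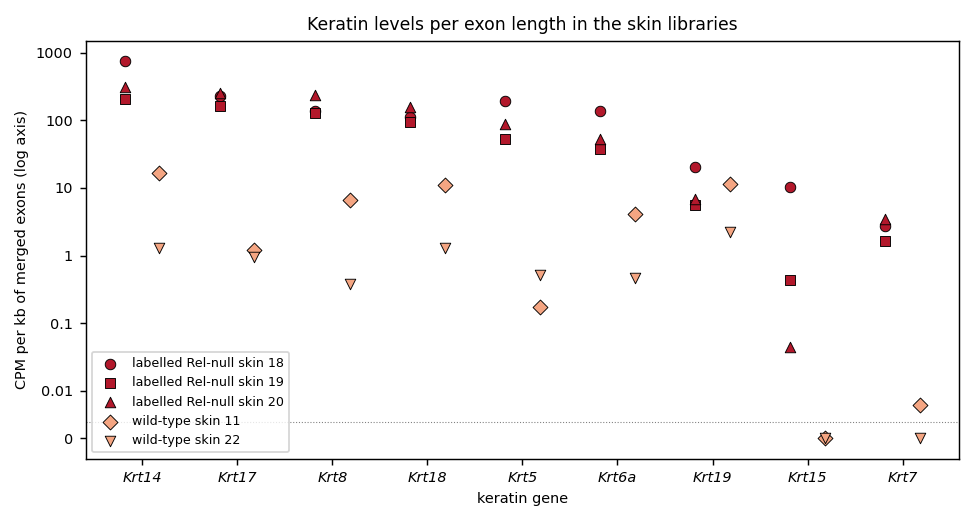
CPM per kb of merged exons for each keratin in the 5 skin libraries, on a log axis with 0 drawn below the dotted line; Rel-null libraries are dark and wild-type libraries light. Krt14 led in the 3 Rel-null libraries and in wild-type skin 11, but stood below Krt19 and Krt18 in wild-type skin 22, and Krt19 was the only gene in which the 2 groups overlapped.

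In Rel-null skin 2 of the 4 type II to type I ratios were steady and 2 were not. Per exon length, Krt5 stood to Krt14 as 0.261, 0.256 and 0.276 in libraries 18, 19 and 20, against 0.0106 in wild-type skin 11, from 9 and 679 counts. Wild-type skin 22 had 3 and 6 counts of the pair, a ratio of 0.4001 with a counting interval of 0.0647 to 1.87. This interval holds the Rel-null values, so library 22 is not shown to differ from them. The Krt8 to Krt18 ratio was 1.22, 1.34 and 1.48 in Rel-null skin, against 0.595 in wild-type skin 11. These ratios were more alike among the Rel-null libraries than the levels themselves, which spanned 3.69-fold for Krt5. Krt6a to Krt17 was uneven, at 0.597, 0.232 and 0.213 in Rel-null skin, against 3.51 in wild-type skin 11, and Krt7 to Krt19 ran from 0.135 to 0.518 in Rel-null skin. Apart from that value, ratios were taken only where both genes had more than 3 counts, which left 1 wild-type skin library for 3 of the pairs and none for Krt7 and Krt19.

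**Figure D4:**
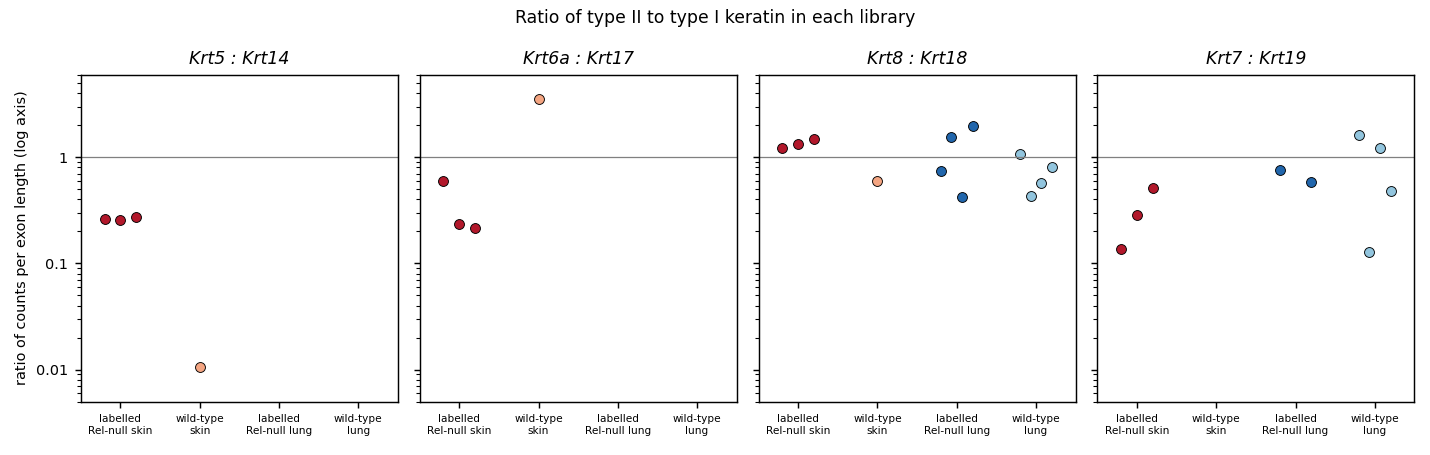
Ratio of the type II to the type I keratin of each pair per exon length, on a log axis, in each library with more than 3 counts of both. The 3 Rel-null skin libraries lie close together for Krt5 over Krt14 and for Krt8 over Krt18, while lung libraries spread from 0.422 to 1.98 for Krt8 over Krt18.

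In lung the basal and stress keratins were almost absent. Krt5, Krt15 and Krt6a had 0 counts in all 9 lung libraries, and Krt14 had a single count, in wild-type lung 23. For Krt5 in the Rel-null lung group, 3 counts would equal 0.0363 CPM over its pooled total, and 0.0252 CPM in wild-type lung. Krt17 had 0 counts in Rel-null lung, against 0.335 ± 0.570 CPM in wild-type lung (SD, n = 5, 44 counts in all). Most of these were in wild-type lung 1, at 1.33 CPM, and the groups overlap because 2 wild-type libraries also had 0. The mean was at least 9.23-fold lower in Rel-null lung (edgeR unadjusted p = 0.00887, adjusted p = 0.781).

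The simple keratins were read at low levels in lung of both genotypes. Krt8 read 16.6, 15.2, 5.82 and 3.89 CPM in Rel-null lung 7, 8, 9 and 10, against 11.4, 3.23, 3.81, 6.27 and 1.14 CPM in wild-type lung 1, 23, 3, 4 and 5. Krt18 read 16.3, 7.26, 10.1 and 1.44 CPM in Rel-null lung, against 0, 2.22, 6.55, 8.04 and 1.04 CPM in wild-type lung. Both overlap between genotypes, with log2 fold changes of 0.89 ± 0.65 SE for Krt8 (edgeR adjusted p = 0.925) and 1.28 ± 0.90 SE for Krt18 (adjusted p = 0.912). Krt7 read 0, 10.3, 2.47 and 4.13 CPM in Rel-null lung, against 24.9, 2.91, 12.5, 0 and 1.80 CPM in wild-type lung (-1.10 ± 1.42 SE, edgeR adjusted p = 1.00). Krt19 read 35.9, 3.59, 0 and 1.87 CPM in Rel-null lung, against 4.04, 5.98, 2.68, 7.02 and 1.00 CPM in wild-type lung (1.20 ± 1.20 SE, edgeR adjusted p = 1.00). The positive value for Krt19 came from Rel-null lung 7, without which it was -1.14, and the value for Krt7 was 0.0007 without wild-type lung 1. No keratin passed edgeR's test in lung (0 of 9, and 0.00% of all genes). Only Krt17 had an unadjusted p under 0.05, and DESeq2 and limma-voom also called 0.

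Mesothelial markers varied between the lung libraries as well. Krt7 was highest in wild-type lung 1 and 3 and Rel-null lung 8, where 7 mesothelial markers such as Upk3b and Msln summed to 292, 266 and 386 CPM. It was at 0 in Rel-null lung 7, where the same sum was 159 CPM, and in wild-type lung 4, where the sum was 19.6 CPM. In Rel-null lung 9 the sum was 244 CPM, but Krt7 read only 2.47 CPM. The sums ran from 6.92 to 386 CPM in Rel-null lung and from 11.8 to 292 CPM in wild-type lung, and 6 of the 7 markers were above 0 in each, Nkx2-3 being the one at 0 in all libraries. Alveolar type 2 markers, all 7 above 0 in both lung groups, summed to 78.6 to 189 CPM in Rel-null lung and 121 to 361 CPM in wild-type lung. Abca3 alone read 55.6 to 151 CPM in Rel-null lung and 90.1 to 164 CPM in wild-type lung. It also read 48.1 to 60.7 CPM in Rel-null skin and 17.7 to 46.4 CPM in wild-type skin. The part of mesothelial and alveolar type 2 cells in the lung keratin values was not tested.

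The difference between the skin and lung effects of the Rel-null label was estimated for the keratins read in all 4 groups. For Krt8 it was 4.50 ± 1.22 on the log2 scale (SE, edgeR unadjusted p = 0.00208, adjusted p = 0.670). It was 2.91 ± 1.61 for Krt18 and -0.55 ± 2.01 for Krt19. For Krt7, with 1 count in wild-type skin, it had an unadjusted p of 0.0104. For Krt17, whose fold has no finite value because Rel-null lung is at 0 counts, edgeR gave an unadjusted p of 6.07e-05 and an adjusted p of 0.166, and the gene passed without wild-type skin 22. No keratin passed this test (0 of 9, and 0.00% of all genes), and 3 had an unadjusted p under 0.05 with a larger effect in skin, against 3.32% of all genes. DESeq2 called 4 of 9 and 0.603% of all genes, and limma-voom 0 of 9 and 1.06% of all genes. The skin and lung effects are therefore not shown to differ by edgeR.

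Between tissues, 6 keratins were called higher in skin under the Rel-null label and 3 in wild type. In Rel-null skin against Rel-null lung, every skin library lay above every lung library in 8 of 9 keratins, all but Krt19, where 13.3% of all genes did so. For Krt15 this rests on 1 count in Rel-null skin 20. edgeR called 6 of 9 higher in skin, against 1.82% of all genes. Krt5, which was called, and Krt15, which was not, passed the low-count filter only through Rel-null skin. The means were at least 20530-fold higher for Krt14 (adjusted p = 1.85e-05), 9207-fold for Krt17 (1.62e-04), 6775-fold for Krt5 (6.78e-05) and 5108-fold for Krt6a (3.52e-04), each against 3 counts over Rel-null lung. Krt8 was 31.2-fold higher (4.86 ± 0.82 SE, edgeR adjusted p = 0.00192) and Krt18 19.8-fold (4.23 ± 1.10 SE, adjusted p = 0.0358). The Krt18 call ended when any 1 of Rel-null skin 18, 19 or 20 or of Rel-null lung 8, 9 or 10 was left out. Krt15, at least 174-fold higher, did not pass (edgeR adjusted p = 0.121).

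In wild-type skin against wild-type lung edgeR called 3 of 9 keratins higher, against 0.902% of all genes. Krt14 had a pooled ratio of 3150, with a counting interval of 564 to 124600 from 1 lung count (edgeR adjusted p = 2.45e-04). Krt6a was at least 223-fold higher (adjusted p = 0.00282) and Krt5 at least 18.4-fold (adjusted p = 0.0199). The calls of Krt6a and Krt5 ended without wild-type skin 11, in whose absence wild-type skin is library 22 alone. limma-voom called none of the 3 although it called 4.03% of all genes in either direction, and without wild-type lung 1 Krt17 passed edgeR's test as well. Krt7 went the other way, at 1 count and 0 counts in wild-type skin, against 8.43 ± 10.4 CPM in wild-type lung (SD, n = 5), where 1 library was also at 0. Its log2 fold change was -7.89 ± 2.99 SE (edgeR unadjusted p = 0.0180, adjusted p = 0.223), and DESeq2, which called 7.44% of all genes in either direction, called it along with the other 3. Krt8, Krt18 and Krt19 overlapped between wild-type skin and lung, with log2 fold changes of 0.36 ± 0.81, 1.32 ± 1.08 and 1.52 ± 1.42 SE. Each of them turned negative without wild-type skin 11.

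Among the other 44 keratin genes in the table, 31 had 0 counts in all 14 libraries and 7 were tested. Fitted values were higher in Rel-null than wild-type skin for all 7 (median 7.28 on the log2 scale, or 2.70 with genes at 0 set to their bound), 3 had an unadjusted p under 0.05 and 0 were called. Krt16, Krt6b, Krt23 and Krt79 had at most 1 count in wild-type skin and passed the low-count filter only through Rel-null skin. Their direction was thus set by that filter. In Krt10, Krt20 and Krt80 the skin groups overlapped, with log2 fold changes of 0.39 ± 2.66, 0.56 ± 3.07 and 1.46 ± 2.10 SE. Krt16, the usual partner of Krt6a in wounded epidermis, read 98.2, 13.2 and 18.1 CPM in Rel-null skin 18, 19 and 20, against 1 count and 0 counts in wild-type skin. As for Krt6a, library 18 was highest, and the pooled ratio was 1475 with a counting interval of 265 to 58260 (edgeR adjusted p = 0.399). Krt6b read 21.1, 0.955 and 0.939 CPM in Rel-null skin, against 0 in wild-type skin, and its reads may be shared with Krt6a. Krt80, a type II keratin of differentiating epithelium, went with neither group, at 0.0349, 7.51 and 14.7 CPM in Rel-null skin, against 0.0861 and 6.01 CPM in wild-type skin. Krt16 and Krt6b had 0 counts in lung, where Krt80 read up to 9.70 CPM in Rel-null and 11.3 CPM in wild-type libraries. Krt10, the type I keratin of suprabasal epidermis, stood at 1.72 ± 0.723 CPM in Rel-null skin (SD, n = 3) and 1.50 ± 2.12 CPM in wild-type skin (n = 2).

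Genes of epithelial junctions stood high in the same libraries. Of the desmosome genes, which tie keratin filaments to cell contacts, 12 of 14 were tested and all 12 had higher fitted values in Rel-null skin, 7 with an unadjusted p under 0.05 and 0 called (median log2 fold change 4.98, against 0.01 over all genes). At least Pkp3, Dsg3 and Dsc3 passed the low-count filter only through Rel-null skin, so their direction was set by it. Perp, a membrane protein of desmosomes, averaged 156 ± 55.8 CPM in Rel-null skin and 5.24 ± 6.92 CPM in wild-type skin (SD, n = 3 and 2). The desmosomal cadherin Dsg3 averaged 45.2 ± 17.6 CPM in Rel-null skin and 1.25 ± 1.77 CPM in wild-type skin. The plakophilin Pkp3 averaged 21.1 ± 11.1 CPM in Rel-null skin and 0.0430 ± 0.0609 CPM in wild-type skin. Plakoglobin, Jup, which is also made in other cells, averaged 155 ± 56.2 CPM in Rel-null skin and 44.2 ± 27.8 CPM in wild-type skin.

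Genes of simple-epithelium cell contacts gave the same picture, with all 11 tested members higher in Rel-null skin, 8 with an unadjusted p under 0.05 and 0 called. The median log2 fold change was 7.85, or 6.20 with genes at 0 set to their bound. The protease inhibitor Spint2 averaged 103 ± 26.7 CPM in Rel-null skin and 0.772 ± 1.03 CPM in wild-type skin (edgeR adjusted p = 0.0513). E-cadherin, Cdh1, averaged 254 ± 107 CPM in Rel-null skin and 3.12 ± 2.29 CPM in wild-type skin (adjusted p = 0.359). Epcam averaged 82.9 ± 28.1 CPM in Rel-null skin and 0.252 ± 0.174 CPM in wild-type skin, and the inhibitor Spint1 31.6 ± 8.95 CPM in Rel-null skin and 0.0215 ± 0.0304 CPM in wild-type skin.

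Genes of hemidesmosomes and their laminin, through which basal keratinocytes hold on to the basement membrane, went both ways. Of 9 tested, 6 were higher and 3 lower in Rel-null skin, including an unadjusted p under 0.05 for 2 of the higher and 1 of the lower ones and 0 called (median 2.65). The laminin chain Lamb3 averaged 135 ± 69.5 CPM in Rel-null skin and 15.6 ± 17.8 CPM in wild-type skin (SD, n = 3 and 2). Lama3, another laminin chain, averaged 96.7 ± 44.9 CPM in Rel-null skin and 3.65 ± 4.63 CPM in wild-type skin. Dst, whose products include a linker of keratin to hemidesmosomes and forms of other tissues, averaged 98.0 ± 60.3 CPM in Rel-null skin and 314 ± 6.23 CPM in wild-type skin.

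Epithelial transcription factors had 14 of 16 genes tested, 11 higher and 3 lower in Rel-null skin. Of the higher ones 5 had an unadjusted p under 0.05 in edgeR's test, where 3.65% of all genes did so, and 0 were called. Summed levels of the 16 genes overlapped, at 206, 111 and 205 CPM in Rel-null skin 18, 19 and 20, against 78.45 and 126.5 CPM in wild-type skin 11 and 22. The median log2 fold change was 6.65, or 4.01 with genes at 0 set to their bound. Ehf (12.5 ± 8.01 CPM), Grhl2 (6.87 ± 3.54), Tfap2c (4.43 ± 2.37) and Grhl3 (5.91 ± 6.98 CPM in Rel-null skin) had 0 counts in wild-type skin. They passed the low-count filter only through Rel-null skin, so their direction was set by it. Genes of the cornified envelope were less clear. Of 12 such genes 6 were tested, 5 higher and 1 lower (median 3.60, or 2.86 with bounds), with 0 unadjusted p under 0.05 and 0 called. Involucrin, Ivl, averaged 8.87 ± 3.04 CPM in Rel-null skin and 0.419 ± 0.470 CPM in wild-type skin, and loricrin, Lor, 0.954 ± 1.02 CPM in Rel-null skin and 0 in wild-type skin. Loricrin passed the low-count filter only through Rel-null skin, so its direction was set by it. The transglutaminase Tgm1 averaged 2.23 ± 2.14 CPM in Rel-null skin and 0.209 ± 0.235 CPM in wild-type skin, while corneodesmosin, Cdsn, averaged 1.13 ± 0.477 CPM in Rel-null skin and 17.1 ± 24.2 CPM in wild-type skin.

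Other intermediate filaments showed no such shift. Of 7 tested 4 were higher and 3 lower in Rel-null skin, with a median of 0.05. Vimentin, Vim, the filament protein of fibroblasts, averaged 2098 ± 12.0 CPM in Rel-null skin and 3204 ± 1476 CPM in wild-type skin (edgeR adjusted p = 0.890). The nuclear lamin Lmnb1 averaged 26.0 ± 6.79 CPM in Rel-null skin and 10.4 ± 7.02 CPM in wild-type skin (unadjusted p = 0.0450), nestin, Nes, 109 ± 56.5 CPM in Rel-null skin and 320 ± 421 CPM in wild-type skin, and synemin, Synm, 0.481 ± 0.675 CPM in Rel-null skin and 4.51 ± 6.37 CPM in wild-type skin. In CPM, not corrected for exon length, vimentin stood above the summed keratins in libraries 19 and 20, at 1234 and 1984 CPM of keratin. Without that correction it stood below them in library 18, at 2942 CPM.

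Markers of keratinocytes other than keratins moved with the keratins. The 9 basal keratinocyte markers summed to 422 to 909 CPM in Rel-null skin and 27.0 to 67.8 CPM in wild-type skin, none being at 0 in either group. Of the 9, 8 lay wholly higher in Rel-null skin, where 13.7% of all tested genes did so. Among these, Dsg3, Dsc3 and Serpinb5 passed the low-count filter only through Rel-null skin, so their direction was set by it. In edgeR's test 5 of 9 were higher at an unadjusted p under 0.05, against 3.65% of all genes, and 0 were called. The marker that did not lie wholly higher was Trp63, encoding the basal regulator p63, at 3.70, 1.97 and 0.470 CPM in Rel-null skin 18, 19 and 20, against 0 and 6.01 CPM in wild-type skin 11 and 22. The 8 markers of differentiated keratinocytes summed to 49.0 to 59.7 CPM in Rel-null skin and 6.76 to 12.4 CPM in wild-type skin, with 1 and 4 of them at 0. Fibroblast markers summed to 9470 to 24510 CPM in Rel-null skin and 19010 to 34940 CPM in wild-type skin, so that these sums overlapped. Hair follicle and sebaceous markers summed to 198 to 343 CPM in Rel-null skin and 99.9 to 502 CPM in wild-type skin, and this overlap came from Mgst1, which also read 155 to 407 CPM in lung libraries. The other 7 summed to 96.3, 85.2 and 96.9 CPM in Rel-null skin 18, 19 and 20, against 68.7 and 42.4 CPM in wild-type skin 11 and 22, with no overlap. Most of that sum was Sox9, at 85.4, 68.5 and 74.1 CPM in Rel-null skin, against 65.1 and 22.9 CPM in wild-type skin. Of the 8 markers 2 lay wholly higher in Rel-null skin, and fitted values were higher for 5 and lower for 3. Atoh1, the defining factor of Merkel cells, which contain Krt8 and Krt18, had 0 counts in every library. The 5 Merkel cell markers, Atoh1 included, summed to 0 in wild-type skin 11 but 34.5 CPM in wild-type skin 22, mostly from Sox2. In Rel-null skin 18, 19 and 20 they summed to 0, 2.42 and 2.82 CPM, mostly from Krt20. Their sum was at most 0.769 CPM in lung libraries. The part of keratinocytes carried over from the tissue pieces in the keratin values was not tested.

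**Figure D5:**
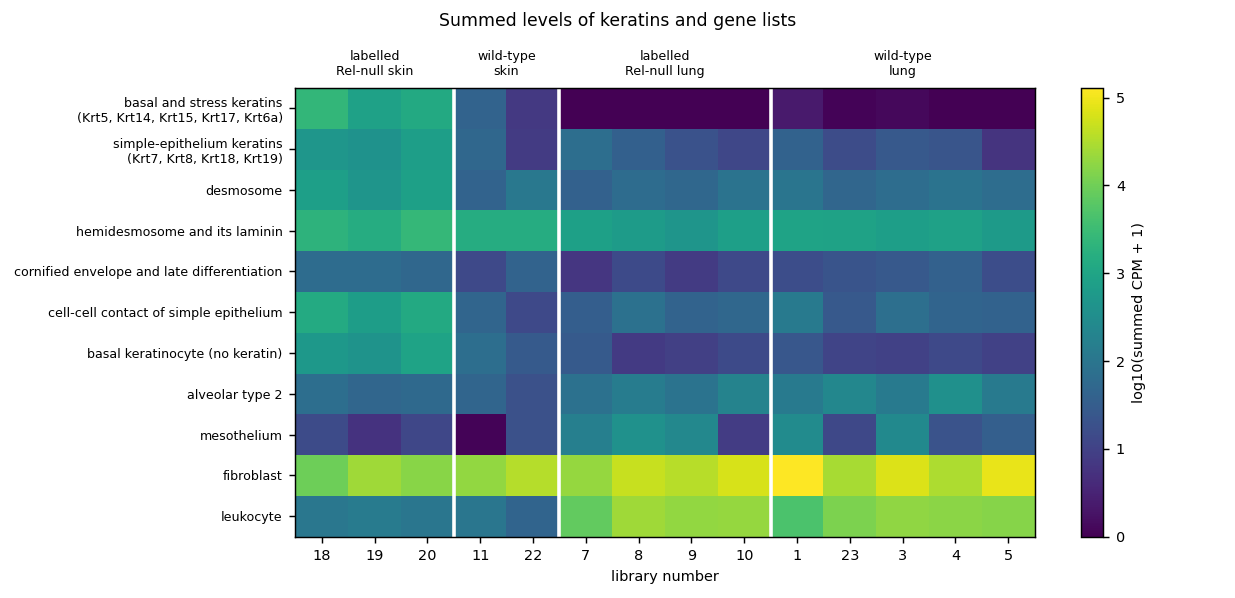
Summed CPM of keratin classes and gene lists in each library, coloured by log10(sum + 1), with library numbers along the bottom. Both keratin classes, desmosome, cell-contact and basal keratinocyte genes are brightest in the 3 Rel-null skin libraries, while fibroblast genes are bright in all 14 and leukocyte genes in lung.

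The genes whose pattern over the 14 libraries was most like that of Krt5 and Krt14 were sought by Pearson r of log2 CPM with their mean. The 5 closest non-keratin genes were Serpinb5 (0.992), Lypd3 (0.972), Prom2 (0.971), Pglyrp3 (0.970) and Dsg3 (0.967). Among the keratins r was 0.993 for Krt6a, 0.956 for Krt17, 0.787 for Krt8 and 0.264 for Krt7. The genes closest to Krt8 and Krt18 were AU018091 (0.889), Dsc3 (0.888), Tmprss11e (0.887), Marveld3 (0.886) and Slc11a2 (0.886). Serpinb5, the serpin maspin, averaged 15.9 ± 2.63 CPM in Rel-null skin and 1.31 ± 1.32 CPM in wild-type skin, with 0 counts in lung. These values describe patterns that the contrast of skin with lung and of the 3 Rel-null skin libraries with the rest largely sets.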

How the data were processed

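The 14 libraries were analysed from a table of raw counts, which the authors deposited for 48795 genes. All of its columns could be assigned to samples. FastQC 0.11.2, Trimmomatic 0.33, STAR 2.4.2a and GRCm38 appear in the submitters' processing notes without role or order. Per the labels, libraries were directional; how reads were counted, on which strand and against which annotation is not stated there.

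GENCODE M21 supplied symbols (48435 identifiers matched), coordinates and exon lengths. Levels are CPM of raw totals, per kb of merged exons between genes. Intervals of single libraries are exact Poisson intervals and those of pooled ratios Clopper-Pearson intervals, at 95%; like the floor of 3 counts, they include counting error alone. Where 1 group had 0 counts, the bound divides the lower of the other group's mean and pooled CPM by that floor. A gene counted as expressed at 0 if it averaged at least 5 CPM in the other libraries of its tissue.

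Differences were tested with edgeR 4.0.16 in R 4.3.3: TMM factors, filterByExpr (minimum count 10, total 15), 1 quasi-likelihood model of 4 group means, Benjamini-Hochberg adjustment over 16408 genes, threshold 0.05. All libraries entered the fit, as wild-type skin holds only 2, and a fit of the compared groups was an alternative. The procedure was tested on simulated data. Alternatives used RLE or upper-quartile factors, no filter or 1 CPM in 2 libraries, DESeq2 1.42.0, limma 3.58.1 (voom with quality weights), the compared groups alone, omission of single or doubtful libraries, longest transcripts and TMM-scaled totals.

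Keratins and lists were chosen with earlier results of these data known. Named were the 9 keratins, other keratins averaging at least 5 CPM in a group, up to 4 genes per list by smallest p in skin (1 such gene is not reported here), and the 5 genes best correlated with each keratin pair (log2 CPM, prior count 1). Krt10, Krt20, Krt23, Krt79, Trp63, Upk3b, Msln, Nkx2-3, Atoh1, Sox2, Sox9, Abca3 and Mgst1 were named after the values were seen. The marker sum without Mgst1 and the partner ratio of wild-type skin 22 were also added after the values were seen.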

Additional observations from a re-analysis of the deposited data

Results flagged for a closer look

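Among 9 sets of lung values with more than 3 counts, 2 held a library far from the others. The rule flags about 1 in 20 by chance only where values are normally distributed, which was not tested for these low and uneven values. Krt19 in Rel-null lung 7 read 35.9 CPM, against at most 3.59 CPM in the other 3 Rel-null lung libraries, and library 7 was also the one with the most expressed genes at 0 counts. Krt17 in wild-type lung 1 read 1.33 CPM, against at most 0.290 CPM in the other wild-type lung libraries, and library 1 was Xist-positive. Krt17 was also flagged for opposite directions in the tissues: each Rel-null skin library lay above the wild-type skin mean, and each Rel-null lung library, at 0 counts, below the wild-type lung mean (-0.335 CPM). A library at 0 counts lies below any mean above 0, and wild-type lung 4 and 5 were also at 0. Wild-type lung 1 held 34 of the 44 wild-type lung counts, so a fall in lung is not shown. For the difference between the skin and lung effects edgeR gave an unadjusted p of 6.07e-05 and an adjusted p of 0.166, so it did not pass the threshold.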

How the results depend on the processing

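No paired analysis was possible because the groups share no replicate numbers. Genes called numbered 0 for Rel-null against wild-type skin, 0 for lung, 0 for the difference of these effects, 487 for wild-type skin against lung and 829 for Rel-null skin against lung. Leaving out 1 library gave 0 to 421, 0 to 2, 0 to 370, 258 to 1050 and 410 to 1323 genes in that order. For skin, upper-quartile factors gave 3 genes, no filter 58, DESeq2 145, limma-voom 300, only the groups compared 2, leaving out Rel-null skin 19 and 20 gave 55, the 4 libraries with the most genes at 0 gave 87 and the 2 Xist-positive libraries 439. For lung, no filter gave 5, DESeq2 51, limma-voom 6, only the groups compared 2, leaving out skin 19 and 20 gave 2 and the 4 libraries 6. For the difference, no filter gave 31, DESeq2 99, limma-voom 174, leaving out skin 19 and 20 gave 31, the 4 libraries 31 and the Xist-positive libraries 365. For wild-type skin against lung, no filter gave 782, DESeq2 1220, the 4 libraries left out 858 and the Xist-positive ones 1044. For Rel-null skin against lung, DESeq2 gave 1770, limma-voom 4501, skin 19 and 20 left out 409 and the 4 libraries 2171.

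Keratins called in skin numbered 1 with upper-quartile factors, 5 with no filter, 4 with DESeq2, 1 with only the groups compared, 2 without skin 19 and 20, 3 without the 4 libraries, 4 without the Xist-positive ones and 0 to 2 with 1 library left out. For the difference, no filter gave 1, DESeq2 4, the Xist-positive libraries left out 1 and 1 library left out 0 to 1. For wild-type skin against lung the 3 calls became 0 with limma-voom, 1 with only the groups compared and 1 to 4 with 1 library left out. For Rel-null skin against lung 5 to 8 were called.

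Krt19 turned negative in skin without Rel-null skin 18 (-0.12), without wild-type skin 22 (-0.11) and without the Xist-positive libraries (-0.0916), and reached 2.48 without wild-type skin 11. In lung Krt19 turned to -0.98 with limma-voom, -1.14 without Rel-null lung 7 and -0.89 without the 4 libraries, and Krt7 to 0.28 with limma-voom and 0.0007 without wild-type lung 1. With 1 lung library left out they otherwise ran up to 1.69 for Krt19 (without Rel-null lung 9) and down to -2.05 for Krt7 (without Rel-null lung 8). In wild-type skin against lung, leaving out wild-type skin 11 or the 4 libraries gave -3.13 and -3.10 for Krt8, -1.20 and -0.72 for Krt18, and -0.30 and -0.0584 for Krt19, and without wild-type skin 22 these reached 1.18, 2.12 and 2.28. The cause of these changes was not tested. Among the alternative values of keratin log2 fold changes, 471 kept direction and side of the threshold, 30 gained a call, 8 lost one and 14 changed sign. In wild-type skin 22 low values are imprecise, since 3 counts there equal 1.13 CPM.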
